A study of Mus musculus with 8 samples.

Results

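The genes described here are the long noncoding RNA Carmn and 9 markers of mural cells, the smooth muscle cells and pericytes that wrap the outside of vessels, as measured in sorted mouse lung endothelium. They were chosen by name, and all 10 were found among the 34899 genes of the deposited table. Of the markers, 4 belong to the contractile apparatus of smooth muscle (Acta2, Myh11, Tagln, Cnn1) and 5 mark pericytes or mural cells more widely (Pdgfrb, Notch3, Cspg4, Rgs5, Cox4i2). Carmn was picked because its level had been seen to differ between the groups, so the HF to LF values of these genes are descriptions and carry no test of their own.

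RNA-seq libraries came from lung cells of female C57BL6 mice that had been sorted by flow cytometry for CD31, the endothelial adhesion molecule encoded by Pecam1, and against CD45, the leukocyte surface protein encoded by Ptprc. There were 4 libraries from mice labelled HF and 4 from mice labelled LF. The labels spell out neither name and give no age, and the series title sets the work in obesity, neutrophil oxidants and the passage of tumour cells through vessel walls. Reads assigned to genes ranged from 10631506 to 20781564 per library. LF 1 and LF 2 stood apart from LF 3 and LF 4: the summed normalised counts of 10 endothelial markers were 122839 and 135366 in the first pair and 171522 and 199645 in the other, and from 164334 to 185507 in HF. The group differences of the 10 genes and of the gene lists are therefore also given without each pair.

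Mural cells lie against the endothelium and share its basement membrane. They are recruited by endothelial platelet-derived growth factor, which binds the receptor encoded by Pdgfrb, and they are kept in their mature state by Notch ligands acting on Notch3. In smooth muscle, serum response factor (SRF) and its partner myocardin switch on the contractile genes through a short DNA element, the CArG box. Carmn is transcribed beside the genes of the microRNAs miR-143 and miR-145, which are abundant in smooth muscle, and Carmn itself is known as a transcript of contractile smooth muscle.

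The promoter of Acta2, which encodes smooth muscle alpha-actin, is shown because it carries the kind of element through which contractile genes are switched on. The window runs from 250 bases before to 50 bases after the gene start in RefSeq (GRCm38.p6, minus strand, chr19:34255324-34255623), and capitals mark matches to the CArG box with 1 G or C allowed among the A and T bases of its core.
Acta2: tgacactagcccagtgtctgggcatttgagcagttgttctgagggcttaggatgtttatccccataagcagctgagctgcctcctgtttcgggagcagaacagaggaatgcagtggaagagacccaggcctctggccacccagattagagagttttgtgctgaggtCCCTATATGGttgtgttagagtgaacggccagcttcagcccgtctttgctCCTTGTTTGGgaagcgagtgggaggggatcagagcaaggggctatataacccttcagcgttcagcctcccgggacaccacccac

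The matches CCCTATATGG and CCTTGTTTGG begin 84 and 34 bases before the RefSeq start. In the GENCODE annotation Acta2 begins further upstream, at 34255590, so both matches lie inside that gene model. The pattern reads the same on both strands. RefSeq windows were at hand for 5 of the 10 genes (Acta2, Cnn1, Cspg4, Notch3 and Rgs5), and Acta2 was the 1 of them with such a match, against 8.50% of 32851 promoters of the same length. The element with a core of A and T alone was in 0 of the 5 and in 1.63% of all promoters. Windows for Carmn, Tagln, Myh11, Pdgfrb and Cox4i2 were not used here.

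The sorted cells carried the markers of endothelium at high levels and mural transcripts at low levels. Pecam1 was at 28252 ± 1063 normalised counts in HF and 25381 ± 6906 in LF (SD, n = 4 each, as for all group means below). The endothelial cadherin Cdh5 was at 13037 ± 196 and 11154 ± 1655, and Ptprc at 166 ± 72.8 and 199 ± 59.0. A normalised count is the number of reads divided by the library's size factor and is not scaled for gene length. To compare genes, counts were also divided by the length of each gene's merged exons in kilobases. On that scale the mean level over the 8 libraries was 4306 per kilobase for Pecam1. For the mural genes it was highest for Cox4i2 (723 ± 118 SD over 8 libraries), then Pdgfrb (220 ± 68.8) and Acta2 (104 ± 21.5). Carmn followed at 59.6 ± 24.6 per kilobase, with Rgs5 at 54.6 ± 9.09, Notch3 at 46.4 ± 14.6 and Myh11 at 39.2 ± 9.64. Each of these 4 differed from its neighbour in the order by less than 1 SD. Cspg4 (12.6 ± 5.32), Tagln (7.21 ± 1.95) and Cnn1 (4.85 ± 1.44) were lowest per kilobase.

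Carmn (ENSMUSG00000097324) was lower in every HF library than in any LF library. It is annotated as a long intergenic noncoding RNA on the minus strand of chromosome 18, from 61649625 to 61665537 (GRCm38), with no other gene model over it. Its normalised counts were 77.2, 92.4, 107 and 74.8 in HF 1 to HF 4. In LF 1 to LF 4 they were 227, 167, 182 and 172. The highest HF value stood well under the lowest LF value, and LF 1 was the highest of all. Group means were 87.8 ± 14.9 and 187 ± 27.3, a fold of 0.471 with a 95% interval of 0.354 to 0.627. All folds divide HF by LF. They come from the limma fit over all genes on log2(value + 1), a scale that pulls the folds of low genes towards 1.

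Across all genes, limma called 0 of 17067 genes tested (0.00%) at a Benjamini-Hochberg adjusted p under 0.05, so none of the 10 genes was called. At an unadjusted p under 0.05 there were 1882 genes, and edgeR's quasi-likelihood test also called 0 genes. DESeq2, run on the same reads, called 313 genes (2.17% of 14420 with an adjusted p, and 0.596% called and lower in HF), among them Carmn, Pdgfrb and Cox4i2. The authors' deposited table gives adjusted p values for 8 of the 10 genes, and the same 3 genes are under 0.05 there, all lower in HF. There, 2.04% of genes with an adjusted p are under 0.05, and 0.458% are under 0.05 and lower in HF. The groups did not overlap, with HF below, in 2 of the 10 genes, Carmn and Cox4i2, where 1.96% of all genes tested did so. These shares are background for counts that the choice of Carmn had used.

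**Figure D1:**
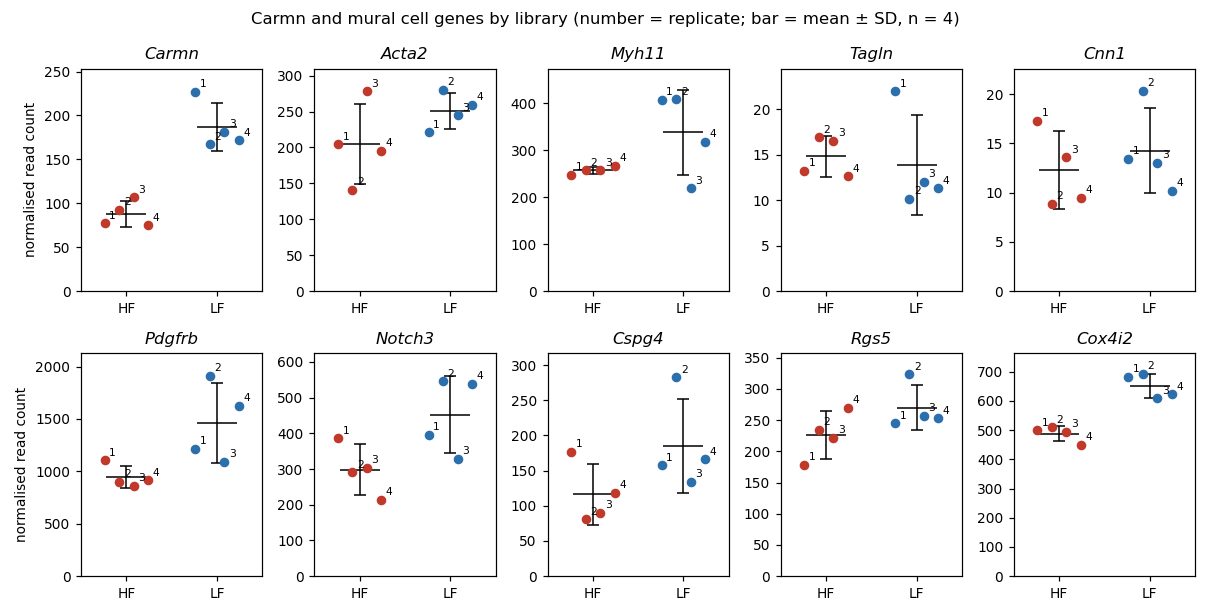
Normalised read counts (y axes, from 0) of Carmn, the contractile genes and the pericyte genes in the HF (red) and LF (blue) libraries, where the number beside a point is the replicate and bars are mean ± SD, n = 4. The HF points lie wholly below the LF points for Carmn and Cox4i2, while the groups overlap for the other 8 genes.

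The contractile genes had smaller differences than Carmn, and their groups overlapped. Myh11, the myosin heavy chain of smooth muscle (chromosome 16, 14194535 to 14291372), was at 248, 258, 257 and 267 in HF 1 to HF 4. Its LF values were 407, 408, 219 and 318. The HF values were close together, and LF 3 was below all of them while the other 3 LF libraries were above. The fold of Myh11 was 0.786 (95% interval 0.588 to 1.05).

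Acta2 (chromosome 19, 34241090 to 34255590) was at 204, 141, 278 and 195 in HF and at 221, 279.9, 245 and 259 in LF. HF 3 reached the level of the highest LF library, and the other 3 HF libraries were below every LF library. The fold was 0.796 (0.591 to 1.07). The coding sequence of Acta2 is 84.2% identical to that of Actg2, the other smooth muscle actin, and 82.5% and 85.4% identical to those of the cardiac and skeletal muscle genes Actc1 and Acta1. The longest identical runs were 29, 23 and 29 bases. Actg2 had 9.92 ± 3.40 normalised counts in HF and 11.4 ± 8.23 in LF.

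Tagln, which encodes the actin-binding protein transgelin, and Cnn1, which encodes calponin, were near the lower limit of what was tested. Tagln was at 13.2, 16.9, 16.5 and 12.6 normalised counts in HF and at 21.96, 10.2, 12.04 and 11.3 in LF. LF 1 was the highest library and the other 3 LF libraries were below every HF library, with a fold of 1.10 (0.637 to 1.91). Tagln (chromosome 9, 45929619 to 45936058) overlaps Pcsk7 and Gm48529 on the other strand. With the strand setting of counting not given in the sources used here, reads of such partners cannot be told apart. Cnn1 ranged from 8.89 to 17.3 in HF and from 10.2 to 20.3 in LF, a fold of 0.869 (0.489 to 1.54). The widths of both intervals show that a moderate difference either way was not detectable for these genes at this depth.

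All 5 pericyte genes had the lower mean in HF. Pdgfrb, the receptor through which mural cells are recruited (chromosome 18, 61045150 to 61085061), was at 1108, 901, 865 and 913 in HF 1 to HF 4. Its LF values were 1213, 1914, 1091 and 1625. LF 2 and LF 4 were far above every HF library, while LF 3 was just below HF 1. The fold was 0.662 (0.510 to 0.858).

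Cox4i2, a subunit isoform of cytochrome c oxidase that is prominent in lung and in pericytes (chromosome 2, 152754173 to 152765037), was at 499, 510.1, 494 and 449 in HF. In LF it was at 683, 692, 608 and 622. The libraries of each group were close together and the groups did not overlap, with a fold of 0.750 (0.631 to 0.892).

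Notch3, the Notch receptor of mural cells, was at 386, 291, 303 and 214 in HF and at 397, 546, 328 and 539 in LF, a fold of 0.662 (0.483 to 0.907). LF 2 and LF 4 were the high libraries, as for Pdgfrb. Notch3 overlaps the antisense gene model Gm17276. Cspg4, a surface proteoglycan of pericytes, was at 177, 80.9, 90.4 and 118 in HF and at 157, 283, 134 and 166 in LF, a fold of 0.628 (0.411 to 0.959). HF 1 and LF 2 were the highest libraries of their groups. Rgs5, which speeds the shut-off of G protein signals in pericytes, ranged from 179 to 270.2 in HF and from 245 to 323 in LF, with a fold of 0.836 (0.650 to 1.07).

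**Figure D2:**
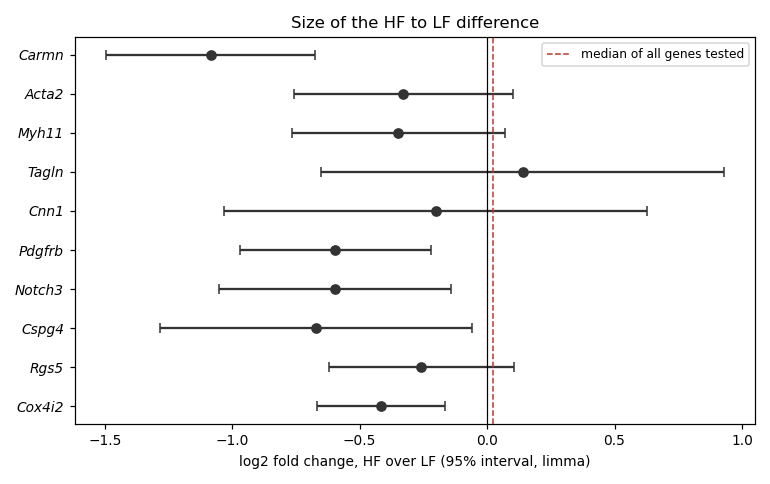
Log2 fold change of HF over LF (x axis) with its 95% interval from limma for each gene, with the median of all genes tested as a dashed line at 0.02. Carmn has the lowest value at -1.08, the pericyte genes lie between -0.67 and -0.26, and the intervals of Tagln and Cnn1 are the widest.

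Over the 9 markers, 8 had a log2 fold change below 0, and the median was -0.35, where 46.8% of all genes tested were below 0 and their median was 0.02. The median was -0.60 for the 5 pericyte genes and -0.27 for the 4 contractile genes. The value for Carmn, -1.08, was below that of each marker. The summed normalised count of the 9 markers ran from 2443 to 2831 in HF and from 2908 to 4476 in LF. In bulk RNA of sorted cells, fewer cells of a type and less RNA per cell cannot be told apart.

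Without LF 1 and LF 2, the fold of Carmn was 0.495 (0.354 to 0.691), and limma called it (adjusted p = 0.0245). In that setting 0.662% of all genes tested were called and lower in HF, where limma called 0 genes with all 8 libraries. None of the other 9 genes was called there, and the median of the contractile genes was 0.0030 against -0.42 for the pericyte genes. Without LF 3 and LF 4, limma called 4 of the 10 genes, Carmn, Cox4i2, Myh11 and Pdgfrb, where 6.02% of all genes tested were called and lower in HF, and all 10 genes had a log2 fold change below 0. There the fold of Carmn was 0.449 (0.314 to 0.641), and the medians were -0.38 for the contractile and -0.67 for the pericyte genes. Myh11 had a fold of 0.632 without LF 3 and LF 4 and of 0.976 without LF 1 and LF 2. The LF pairs were set apart after their values were seen, and Carmn was chosen for its group difference. The calls in these settings are therefore descriptions and carry no test of their own.

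The ratio of Carmn to each marker sets the Carmn difference beside that of the marker. Per library, Carmn divided by Cox4i2 was 0.155 to 0.217 in HF and 0.242 to 0.332 in LF. Divided by Rgs5 it was 0.277 to 0.482 in HF and 0.517 to 0.925 in LF. For these 2 markers and Tagln the ratio was lower in every HF than in any LF library. The share of all genes tested whose ratio has this order was not computed. Carmn itself already had this order, so the order is no result about these markers. For Pdgfrb the ratio overlapped, at 0.0697 to 0.124 in HF and 0.0874 to 0.187 in LF, and it overlapped for the other 5 markers too. Set against the mean log2 level of the 9 markers, Carmn stood at -1.08 to -0.51 in HF and at -0.45 to 0.23 in LF. LF 2, the library with the highest summed marker level, was the LF library closest to the HF range. Because Carmn was chosen for its low HF level, lower ratios in HF were largely set in advance. These ratios are descriptions and carry no test.

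Whether Carmn moved with the markers was also asked within the groups, where the HF to LF difference that chose it plays no part. Each gene's log2 value had its group mean subtracted, and the 8 deviations of Carmn were correlated with those of each marker. Of the 9 correlations 4 were above 0, and their median was -0.083, where the median over 17066 other genes was -0.042. Only Tagln had an exact permutation p under 0.05 for Pearson's r. All p values of these correlations are two-sided and, with all 8 libraries, come from the 576 ways to permute a marker within the groups. With libraries left out there are fewer ways, so the smallest possible p is larger.

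For Tagln, Pearson's r was 0.86 (exact permutation p = 0.00694, 0.0625 after Benjamini-Hochberg adjustment over the 9 correlations) and Spearman's rho was 0.74 (exact permutation p = 0.0226, adjusted 0.164). An r at least as high was found with 0.498% of all genes tested. LF 1 was the library farthest above its group mean for Tagln and was high for Carmn as well. Without the 2 libraries farthest from the median of Carmn, HF 3 and LF 1, r was 0.98. Without LF 1 alone it was 0.89 (exact permutation p = 0.0556). Tagln rests on 10.2 to 21.96 normalised counts per library, so its counting error is large.

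The other contractile genes had r near 0. Pearson's r was 0.044 for Acta2 (rho -0.095, exact permutation p = 0.967 and 0.882), 0.16 for Myh11 (rho 0, exact permutation p = 0.757 and 1) and -0.083 for Cnn1 (rho -0.048, exact permutation p = 0.859 and 0.9375). After adjustment over the 9 correlations these p values were 0.967, 0.967 and 0.967 for r and 1 for rho. Acta2 rested on single libraries, since without HF 3 its r with Carmn was -0.87 (exact permutation p = 0.0139). Without HF 3 and LF 1, r was -0.97 for Acta2, -0.36 for Myh11 and -0.42 for Cnn1.

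Pericyte genes had correlations of both signs. Carmn ran opposite to Cspg4 (r = -0.61, rho = -0.71, exact permutation p = 0.146 and 0.109) and Pdgfrb (r = -0.56, rho = -0.67, exact permutation p = 0.149 and 0.0365). Adjusted over the 9 correlations, p was 0.448 for both values of r and 0.328 and 0.164 for rho, so neither relation passed the threshold. LF 2 and HF 1, where Cspg4 and Pdgfrb were above their group means, had Carmn below its own. For Rgs5 r was -0.24 (rho -0.21, exact permutation p = 0.608 and 0.736, adjusted 0.967 and 1), and for Notch3 it was -0.14 (rho -0.12, exact permutation p = 0.7205 and 0.844, adjusted 0.967 and 1). Cox4i2 had r = 0.42 (rho 0.29, exact permutation p = 0.389 and 0.50, adjusted 0.875 and 1). Without HF 3 and LF 1, r was -0.74 for Cspg4, -0.47 for Pdgfrb, -0.11 for Rgs5, -0.12 for Notch3 and 0.27 for Cox4i2. With 8 libraries, none of these values shows that a relation is absent.

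**Figure D3:**
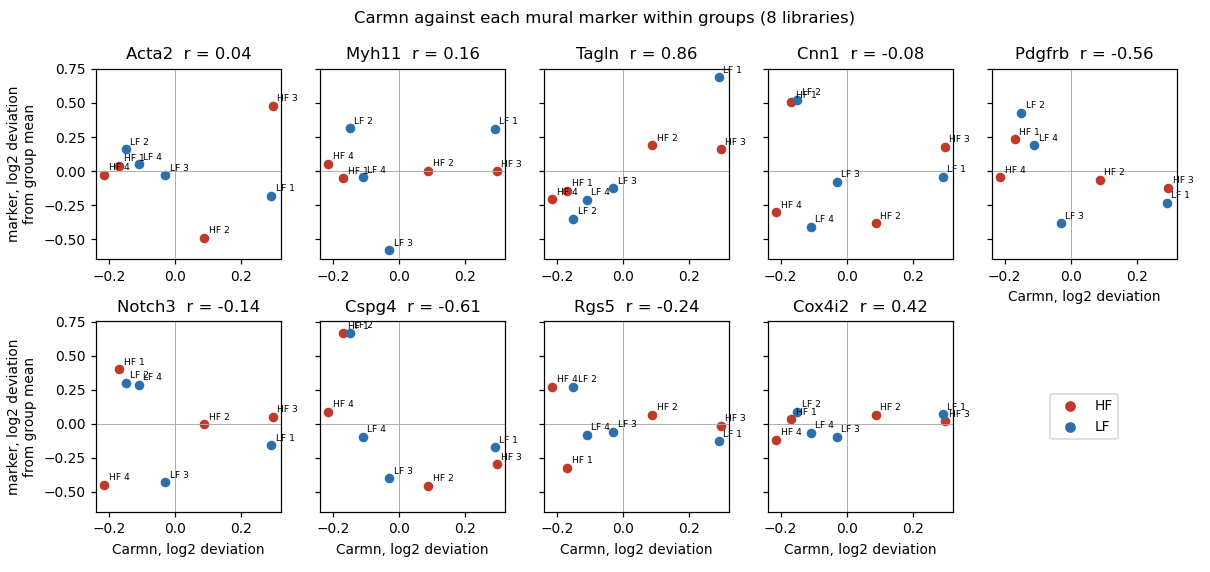
Log2 deviation of Carmn from its group mean (x axis) against that of each marker (y axis) in the 8 libraries, HF in red and LF in blue, with Pearson's r above each plot. The points rise together for Tagln, with LF 1 at the top right, and show no common slope over the 9 markers.

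Pairs of markers were compared within groups in the same way, and none of the 36 passed the threshold after adjustment. Pearson's r was above 0 in 26 pairs, with a median of 0.28, and 2 pairs had an exact permutation p under 0.05. The share above 0 among pairs of other genes was not computed. The highest value joined Pdgfrb and Cspg4 (r = 0.82, rho = 0.81, exact permutation p = 0.00521 and 0.0139, adjusted over the 36 pairs 0.1875 and 0.50). Next came Pdgfrb and Notch3 (r = 0.81, rho = 0.71, exact permutation p = 0.0382 and 0.0764, adjusted 0.6875 and 0.692). Without LF 2 and LF 3, the libraries farthest from the median of Pdgfrb, r was 0.67 and 0.73. The 6 pairs of contractile genes had r from -0.31 to 0.52, with a median of 0.12.

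Genes with a within-group pattern like that of Carmn were ranked over 10932 genes with a mean of 50 or more normalised counts, leaving out clones, pseudogenes and genes named by accession. That minimum leaves out Tagln and Cnn1, and the r of 0.86 for Tagln is below the 8 values given here. The highest Pearson's r over the 8 libraries was that of Cep44, a centrosomal protein gene (0.97). It was followed by Msantd3 (0.96), Selenom, a selenoprotein gene (0.95), Vaultrc5, a vault RNA gene (0.94), and Rab44 (0.93). Smc6 of the SMC5/6 complex (0.93), Fth1, the ferritin heavy chain (0.93), and Ppp3cb, a catalytic subunit of calcineurin (0.92), complete the 8. Of these, Fth1 was lower in every HF than in any LF library and Msantd3 was higher. They are the top of a ranking over many genes with 8 libraries, which all share the same library depths.

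The microRNA genes next to Carmn gave almost no reads. In GRCm38, Mir143 and Mir145a lie 367 and 1731 bases beyond the end of the Carmn model on the same strand. Mir145a had 2.41 ± 1.28 normalised counts in HF and 2.83 ± 1.11 in LF, and Mir143 had 0.486 ± 0.972 and 0.482 ± 0.557. Neither reached the minimum for testing, and libraries of this kind do not measure mature microRNAs.

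Other genes of smooth muscle gave a mixed picture, and which cells gave the reads of this list was not tested. Of 20 such genes 18 were tested, 13 were below 0 on the log2 scale, the median was -0.33, and limma called 0 in either direction with all 8 libraries. Ppp1r14a, an inhibitor of myosin phosphatase, had 253 ± 36.9 normalised counts in HF against 415 ± 105 in LF, with a fold of 0.619 (0.467 to 0.821). Mylk, the myosin light chain kinase, was at 1905 ± 155 and 2528 ± 227, a fold of 0.754 (0.634 to 0.897). The authors' deposited table has these 2 of 17 genes with an adjusted p under 0.05, where 0.458% of its genes with an adjusted p are under 0.05 and lower in HF. The groups did not overlap in 4 of the 18 genes, with HF below, against 1.96% of all genes tested, Des and Tpm1 being the others, named after their values were seen. Mcam, which endothelium also expresses, had 9509 ± 778 normalised counts in HF against 7110.3 ± 1763 in LF, and its fold was 1.37 (1.05 to 1.77). Without LF 1 and LF 2 the list's median was -0.11 and 0 genes were called. Without LF 3 and LF 4 it was -0.34, and limma called 4 genes lower and 1 higher, where 6.02% of all genes tested were called lower and 14.0% higher.

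Of 18 other pericyte genes tested, 16 were below 0, the median was -0.40, and limma called 0 in either direction with all 8 libraries. Gucy1a1, a subunit of the nitric oxide receptor guanylate cyclase, was at 2619 ± 162 and 3642 ± 594, a fold of 0.725 (0.595 to 0.884). Art3 had a fold of 0.732 (0.598 to 0.897), and the cation channel gene Trpc6 one of 0.730 (0.582 to 0.915). In 7 of the 18 genes every HF value was below every LF value, against the 1.96% of all genes tested given above. The authors' deposited table has 1 of the 18, Gucy1a1, under an adjusted p of 0.05 and lower in HF, as 0.458% of its genes with an adjusted p are. Leaving out LF 1 and LF 2 gave a list median of -0.35 with 0 genes called. Leaving out LF 3 and LF 4 gave -0.44 with 3 called lower, where 6.02% of all genes tested were.

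Regulators of the contractile genes and the signals exchanged with endothelium had medians near 0, and limma called 0 of either list with all 8 libraries. Of 8 genes tested in the regulator list, 3 were below 0, and the median was 0.090. The list also held Nexn, which encodes an actin-binding protein and was among those below 0. Folds were 1.19 (0.980 to 1.45) for Klf4, a factor that opposes the contractile programme, 1.34 (0.906 to 1.99) for Gata6 and 0.747 (0.438 to 1.27) for Nexn. Their mean normalised counts over the 8 libraries ran from 119 for Nexn to 6476 for Klf4, where Acta2 had 228. Which cells gave the regulator reads was not tested. Srf, which encodes the factor that binds the CArG box, had a fold of 1.12 (0.695 to 1.81), and Myocd, which encodes its partner myocardin, was at 2.17 ± 3.76 in HF and 1.48 ± 1.80 in LF, too low to test. Of the 22 signalling genes 10 were below 0, with a median of 0.069. The smallest p values were those of Edn1, which encodes the constrictor endothelin (fold 1.43, 1.21 to 1.70), Jag1, a Notch ligand (1.496, 1.20 to 1.86), and S1pr3, a receptor of mural cells (0.777, 0.632 to 0.956). Every HF value was above every LF value for Edn1 and Jag1, where 3.47% of all genes tested had this order. The authors' deposited table has Edn1 and Jag1 under an adjusted p of 0.05, higher in HF, as 1.58% of its genes with an adjusted p are, and 0 of the regulators. For the regulator list the median was 0.22 without LF 1 and LF 2, with 0 called. Without LF 3 and LF 4 it was -0.031, with 1 gene called lower, Nexn. For the signals it was -0.057 without LF 1 and LF 2, with 1 called higher, where 3.09% of all genes tested were. Without LF 3 and LF 4 it was 0.10, with 8 signals called higher and 2 lower. In that setting 14.0% of all genes tested were called higher and 6.02% lower. Pdgfb, the endothelial ligand of the receptor encoded by Pdgfrb, had a fold of 1.11 (0.880 to 1.39).

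Markers of most other cell types that the sort could hold also had log2 fold changes below 0. All 12 fibroblast genes were below 0, with a median of -0.53, and their summed normalised count ran from 8871 to 13731 in HF and from 12680.1 to 18654 in LF. Dpt (fold 0.669, 0.537 to 0.835), Inmt (0.772, 0.638 to 0.935) and Tcf21 (0.720, 0.557 to 0.931) had the smallest p values. Alveolar epithelial genes were below 0 in 9 of 10 (median -0.30, sums 14587 to 22372 in HF and 17019 to 33252 in LF). For airway epithelium it was 5 of 5 tested (median -0.72, sums 2798 to 4527 and 3961 to 7248), with Scgb3a2 at 0.419-fold. Leukocyte genes were below 0 in 6 of 6 tested (median -0.53, sums 3348 to 5914 and 5655 to 7133). Lyz2 made up most of these sums, at 3855 ± 1165 in HF and 5400 ± 766 in LF. Mesothelial genes, with 2 of 5 tested, had sums of 198 to 317 and 337 to 640.1. Krt19, a keratin gene that epithelium also expresses, made up most of these sums, at 248 ± 52.1 in HF and 467 ± 135 in LF. Msln, the other tested gene of that list, had a fold of 0.889 (0.368 to 2.15). Genes of the cardiac muscle of pulmonary veins had sums of 193 to 230.02 and 206 to 249.9. Erythroid and platelet genes were below 0 in 4 of 6 (sums 17642 to 20519 and 19565 to 34680.0). Genes listed at 0 in some libraries were Ly6g, Marco, Cd3e, Ccdc113, Wt1, Lrrn4, Nppa and Myh6, and none was at 0 in all 8. Endothelial genes were above 0 in 9 of 10 (median 0.19), with Erg as the exception (fold 0.750, 0.616 to 0.912). With all 8 libraries limma called 0 genes of these lists. The authors' deposited table has under an adjusted p of 0.05, all lower in HF, Dpt among the fibroblast genes, Scgb3a1 and Scgb3a2 among the airway genes and Krt19 among the mesothelial genes. Of all its genes with an adjusted p, 0.458% are under 0.05 and lower in HF.

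Several of these lists moved with the LF pair left out. Without LF 1 and LF 2 the median was -0.067 for endothelial, -0.46 for fibroblast, 0.28 for alveolar, -0.59 for airway and -0.55 for leukocyte genes. It was then 0.087 for the 2 tested mesothelial genes, 0.11 for cardiac and -0.43 for erythroid and platelet genes. There limma called 1 alveolar, 2 airway and 3 erythroid and platelet genes lower and 0 higher. Of all genes tested, 0.662% were called lower and 3.09% higher without LF 1 and LF 2. Without LF 3 and LF 4 the median was 0.40 for endothelial, -0.71 for fibroblast, -0.92 for alveolar, -0.93 for airway and -0.69 for leukocyte genes. It was then -1.15 for mesothelial, -0.19 for cardiac and 0.057 for erythroid and platelet genes. In that setting limma called 7 endothelial genes higher and 1 lower, and lower were 4 fibroblast genes, 5 alveolar genes and 1 gene each of the airway, leukocyte and mesothelial lists. Of all genes tested, 14.0% were called higher and 6.02% lower without LF 3 and LF 4. The median of fibroblast, airway and leukocyte genes was thus below 0 without either pair, while the sign of the endothelial, alveolar, mesothelial, cardiac and erythroid and platelet medians differed between the settings. The part of these cell types in the mural values was not tested.

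**Figure D4:**
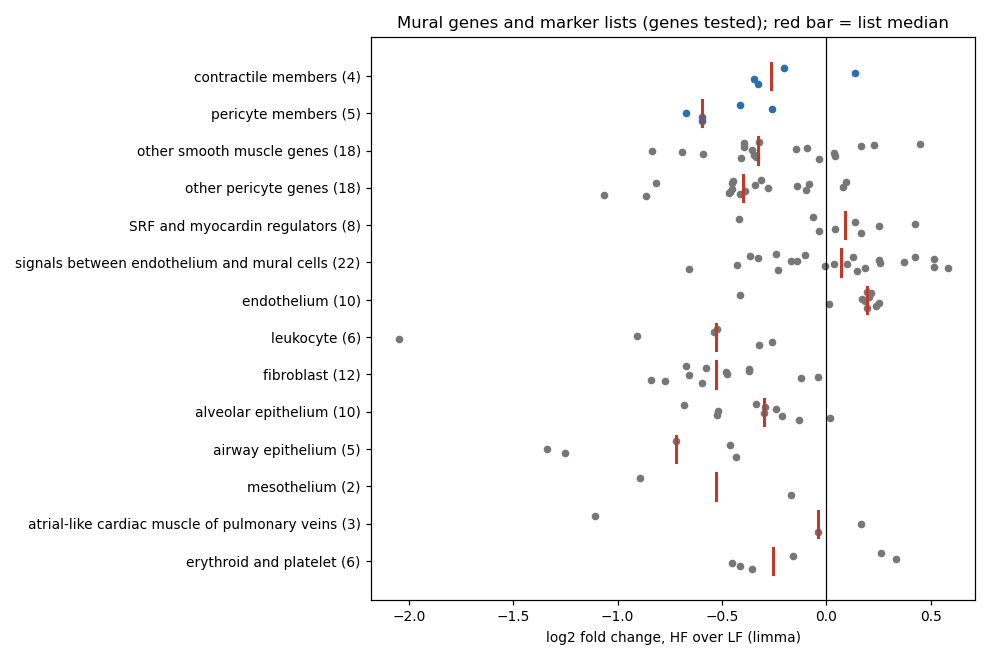
Log2 fold change of HF over LF (x axis) for each tested gene of the contractile and pericyte members (blue) and of the other lists (grey), with the number tested in brackets and the list median as a red bar. Medians of the pericyte lists lie at -0.60 and -0.40, that of fibroblast genes at -0.53, that of endothelial genes at 0.19 and that of SRF and myocardin regulators at 0.09.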

How the data were processed

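Per the labels' protocols, RNA was extracted with TRIzol LS and made into libraries with a SMART-Seq kit. Upstream tools were DESeq2 1.24.0, featureCounts 2.0.0 and STAR 2.6.1b, per the submitters' processing notes, with build, annotation and strand setting not given in the sources used here. What the authors deposited was normalised counts, a signal not scaled for gene length, and, per the file headers, their log2 fold change, Wald score, p-value and adjusted p-value. Whole reads came out for 100% of values within 0.01 reads, and 0 columns of per-sample values were without a sample. All 34899 IDs matched GENCODE M21 (GRCm38), the source of positions and exon lengths.

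A gene was tested when 4 or more libraries held 10 or more normalised counts. The test was limma 3.58.1 with a trend on log2(value + 1), two-sided, over all genes. edgeR 4.0.16 and DESeq2 1.42.0 on recovered reads were alternatives, beside other pseudocounts, filters, scalings and left-out libraries. The fits and correlations were tested on simulated data. The design text gives 4 mice per group, and p-values measure the spread between these libraries. Amplified reads without molecular identifiers are not independent molecules. The members and lists were chosen with earlier results of these data known. Named were all members, up to 3 genes per list with the smallest p (not all are given), the locus microRNAs, marker genes of the sort, and the 8 genes most like Carmn. Other list genes named beside them (Srf, Myocd, Pdgfb, Actg2) were chosen after their values were seen.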

Additional observations from a re-analysis of the deposited data

Results flagged for a closer look

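In a group of 4, a library was marked when its gap to the nearest other library exceeded Dixon's 95% critical value as a share of the group's range, which chance does in about 1 of 20 groups. Of 26 groups (13 genes, HF and LF each), 2 were marked. Tagln in LF had LF 1 at 21.96 normalised counts, while the lowest LF library was at 10.2. Rgs5 in LF had LF 2 at 323 normalised counts, while the other 3 LF libraries lay from 245 to 257.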

How the results depend on the processing

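limma called 0 of the 10 genes with all libraries, and also with each library left out in turn (lowest and highest count 0 and 0), with edgeR and with the replicate number as a block. DESeq2 called 3, limma without LF 1 and LF 2 called 1, and limma without LF 3 and LF 4 called 4, all lower in HF. Of all genes with an adjusted p, 0.596%, 0.662% and 6.02% were called and lower in HF in these settings. The replicate block changed no call. Same-numbered libraries did not deviate together (r from -0.22 to 0.18), so the numbers were not taken to pair samples. The log2 fold change of Carmn stayed between -1.18 and -0.99 in all 20 settings. The sign turned for Cnn1 with quantile normalisation (0.051) and without LF 1 and LF 2 (0.040), and for Tagln without LF 3 and LF 4 (-0.029).

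The number of markers whose within-group correlation with Carmn had an exact permutation p under 0.05 was 1. It was 2 with quantile normalisation (Cspg4 and Tagln) and with Spearman's rho (Pdgfrb and Tagln), 0 to 2 with 1 library left out, and 0 without either LF pair (LF 1 with LF 2, or LF 3 with LF 4). In the last 2 settings the test has 48 permutations. Signs turned for Acta2 with quantile normalisation (-0.094) and with rho (-0.095), for Cnn1 with TMM (0.012), and, without LF 1 and LF 2, for Cnn1 (0.039), Myh11 (-0.14) and Notch3 (0.044). For Myh11 the sign also turned without LF 3 and LF 4 (-0.065). With 1 library left out, r ranged from -0.87 to 0.31 for Acta2, -0.21 to 0.39 for Myh11, -0.295 to 0.175 for Cnn1, -0.75 to 0.042 for Rgs5 and -0.59 to 0.065 for Notch3. The causes were not tested. Tagln and Cnn1 rest on few reads, with the values given above.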
